A study of Mus musculus with 42 samples.

Results

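The genes described here encode 9 transporters of the hepatocyte membrane, out of 54532 genes in the deposited table of read counts. They were taken by name: Abcb11, Abcc2, Abcb4, Abcg5 and Abcg8 of the canalicular membrane, Abcc3, an exporter of the sinusoidal membrane, and Slc10a1, Slco1b2 and Slco1a1, which take up solutes at the sinusoidal membrane. All 9 passed the filter of a mean count of at least 25 in every comparison, at ZT 16 and ZT 20 most of them only through the HFD libraries. The list was drawn up with the values known, and Abcc3 was selected on its read counts, which were higher on the high-fat diet (HFD) in the light phase, so its diet difference at those times is given as a description without a test.

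The mice were female C57BL/6 weanlings (C57BL/6NHsd in the study's methods), 3 weeks old at the start, fed for 3 weeks either the AIN93G diet, with 16% of energy from soybean oil, or the HFD, a modified AIN93 formula with 45% of energy from the same oil. No gene was altered in either group, so the AIN93G-fed mice served as the controls for diet. Livers were taken every 4 h from ZT 0 to ZT 24, where zeitgeber time (ZT) 0 is lights on and ZT 12 is lights off. Poly(A) RNA was sequenced from 3 mice per diet and time point, 42 libraries in all, with 14592481 to 21368409 counted reads each.

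Not every library had the transcripts of a liver. Alb, the gene of serum albumin, was between 66434 and 111995 counts per 1000000 (CPM) in 32 libraries and between 18.7 and 81.0 CPM in the other 10. The latter comprised the AIN93G-fed mice sampled at ZT 16 or ZT 20 (6 libraries) and 4 of the mice sampled at ZT 24, and they held 22725 to 38822 CPM of 8 adipocyte markers summed, against 691 to 2545 CPM in the 32. The account below therefore rests on the 32 liver libraries, 13 of AIN93G-fed and 19 of HFD-fed mice. AIN93G-fed liver was measured in 3 mice each at ZT 0, 4, 8 and 12 and in 1 at ZT 24, and HFD-fed liver in 3 mice each from ZT 0 to ZT 20 and in 1 at ZT 24.

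Clock transcripts went against the time labels of several liver libraries. Arntl, a core activator of the clock also called Bmal1, was 38.8 to 45.7 CPM at ZT 0 and 1.22 to 2.47 CPM at ZT 8. At ZT 12 it was 1.14 CPM in AIN93G replicate 1 and 1.76 and 0.940 CPM in HFD replicates 1 and 2, but 42.4 and 46.3 CPM in AIN93G replicates 2 and 3 and 38.3 CPM in HFD replicate 3, within 1 CPM of the range of ZT 0. Within ZT 12 the deposited phase label was light for AIN93G replicate 2 and HFD replicate 3 and dark for the others. The liver libraries labelled ZT 24 had 0.779 and 1.14 CPM, although ZT 24 and ZT 0 are the same hour of the day. Where leaving out ZT 12, ZT 24 or both changed the call of a transporter in the tests over time, values with and without them are given. Mean levels and correlations over the 32 libraries include both. In addition, HFD ZT 16 replicate 3, labelled female, had 0.618 CPM of Xist, the RNA that silences an X chromosome in female cells, where the other 31 liver libraries had 112 to 1493 CPM.

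Hepatocytes make bile by moving solutes from the blood across the sinusoidal membrane and out across the canalicular membrane. At the canalicular side, Abcb11 (BSEP) pumps bile salts, Abcc2 (MRP2) pumps conjugates such as bilirubin glucuronides, Abcb4 (MDR2) moves phosphatidylcholine into the bile, and Abcg5 and Abcg8 form a dimer that exports cholesterol and plant sterols. At the sinusoidal side, Slc10a1 (NTCP) takes up bile salts together with sodium, Slco1b2 and Slco1a1 take up organic anions, and Abcc3 (MRP3) returns conjugates to the blood.

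The genes lie on 7 chromosomes in the mm10 build, and the deposited positions were the same as in GENCODE M21 for 9 of 9. Abcg5 (ENSMUSG00000040505, chr17:84658234-84683011, minus strand) and Abcg8 (ENSMUSG00000024254, chr17:84676302-84700333, plus strand) are neighbours transcribed away from each other. An upstream exon of the Abcg8 annotation makes the gene spans share 6710 bases, of which 82 are exonic in both, and the strand setting of the counting is not given in the sources used here, so reads from those bases cannot be assigned to either gene. Abcc3 (ENSMUSG00000020865) is at chr11:94343295-94392997, Abcc2 (ENSMUSG00000025194) at chr19:43782192-43840740, Abcb11 (ENSMUSG00000027048) at chr2:69238282-69342616 and Abcb4 (ENSMUSG00000042476) at chr5:8893717-8959231. Slc10a1 (ENSMUSG00000021135) is at chr12:80953183-80968705. Slco1a1 (ENSMUSG00000041698, chr6:141907282-141946962) and Slco1b2 (ENSMUSG00000030236, chr6:141629518-141686646) lie in a cluster of related genes, and the counts of Slco1a1 are uncertain as far as its reads could be shared with close relatives, which was not measured.

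Promoter windows from RefSeq (GRCm38.p6, 250 bases before to 50 after each start) were matched for 8 of the 9 genes. The sequence between the start sites of Abcg5 and Abcg8 is shown because these genes moved together in the data. Those upstream of Slco1b2 and Abcb11 are shown as examples of genes that also differed between times of day in at least 1 fit. Abcb4 and Slc10a1 did so too and are not shown, and a link between a motif and time of day was not tested. The first is chr17:84683012-84683120 on the plus strand, with Abcg5 to its left and Abcg8 to its right. The second is chr6:141629268-141629517 on the plus strand and the third chr2:69342617-69342866 on the minus strand, each ending at the base before the start site. Capitals mark matches, on either strand, to AGATAA (recognised by zinc-finger factors of the GATA family) in the first, and to AGGTCA, a nuclear receptor motif, in the others.
Abcg5-Abcg8: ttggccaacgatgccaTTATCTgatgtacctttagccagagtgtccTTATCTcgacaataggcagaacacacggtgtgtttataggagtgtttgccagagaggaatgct
Slco1b2: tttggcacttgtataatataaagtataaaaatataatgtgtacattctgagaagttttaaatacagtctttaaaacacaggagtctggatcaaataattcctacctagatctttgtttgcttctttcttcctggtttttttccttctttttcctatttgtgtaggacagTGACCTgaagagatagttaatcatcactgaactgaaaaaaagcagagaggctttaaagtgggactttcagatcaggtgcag
Abcb11: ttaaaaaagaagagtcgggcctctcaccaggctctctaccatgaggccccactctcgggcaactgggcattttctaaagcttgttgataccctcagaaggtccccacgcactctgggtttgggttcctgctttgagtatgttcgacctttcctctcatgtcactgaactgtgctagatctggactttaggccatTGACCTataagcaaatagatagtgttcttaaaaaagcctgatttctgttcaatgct

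Searched on both strands, AGATAA was found in 2 of the 10 windows of these 8 genes, 1 each of Abcg5 and Abcg8 that share 209 bases, and in 11.2% of all 32851 mouse windows. AGGTCA was found in 5 of the 10 windows (of Abcc2, Abcb11, Slc10a1, Slco1a1 and Slco1b2) and in 16.3% of all windows. Slc10a1 has 2 windows, and its match is in the one further downstream (chr12:80968030-80968329) and not in the one near the start given by the deposited table. The clock motifs CACGTG (7.15% of all windows) and TTANGTAA (2.32%) were found for 0 of the 8, as were the DR4 and IR1 motifs, which are paired copies of AGGTCA and so overlap with it, the HNF1 palindrome and CAAAGTCCA, an HNF4 motif. These 4 were in 0.0152%, 0.00913%, 0.00913% and 0.475% of all windows. A match is a string of letters and not a shown binding site.

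Levels were compared between the genes as CPM per kilobase of transcript. Slc10a1 was the most abundant, at 295 ± 58.5 CPM per kb (SD, n = 32), followed by Slco1b2 at 264 ± 57.3 and Abcb11 at 158 ± 48.1. Slco1a1 had 86.2 ± 25.9, Abcc2 75.6 ± 16.5, Abcg5 45.0 ± 14.9, Abcb4 35.6 ± 7.55 and Abcg8 29.8 ± 10.1 CPM per kb. Abcc3 was the least abundant of the 9 at 17.7 ± 5.35 CPM per kb, and it ranked 8 or 9 in each of the 32 libraries. The means of Slc10a1 and Slco1b2, of Slco1a1 and Abcc2, and of Abcb4 and Abcg8 lay within 1 SD of each other. The mean of Abcb4 lay within 1 SD of Abcg5, by the SD of Abcg5 but not by its own. Within each library Slc10a1 and Slco1b2 took ranks between 1 and 3, above the sterol and phospholipid exporters, whose ranks lay between 5 and 9.

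**Figure D1:**
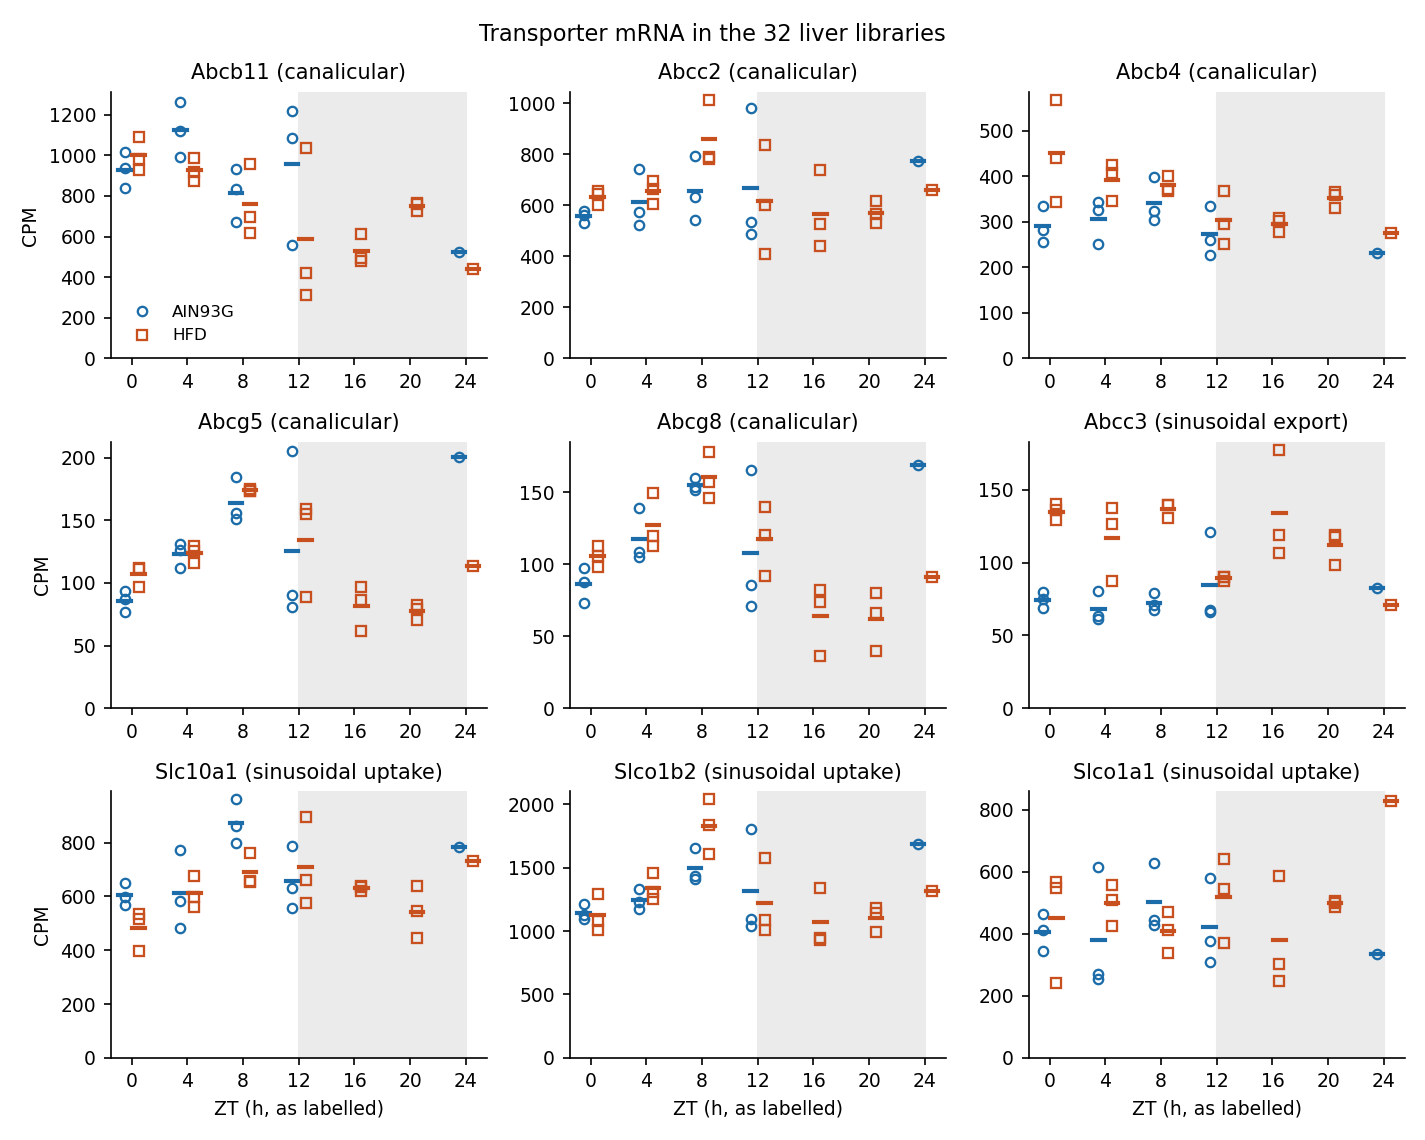
Each panel plots the CPM of 1 transporter (y axis, from 0) against the labelled ZT in hours (x axis) in the 32 liver libraries, with circles for AIN93G, squares for the HFD, short lines for group means and grey for the dark phase. Abcc3 on the HFD, 87.6 to 140.2 CPM at ZT 0 to ZT 8, sits above the AIN93G libraries at those times, and Abcg5 and Abcg8 climb from ZT 0 to ZT 8 in both diets.

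Abcc3 had the largest diet difference of the 9 genes in the light phase. At ZT 0 it was 79.7, 75.2 and 68.8 CPM in the AIN93G-fed mice and 129, 136 and 140.2 CPM in the HFD-fed mice. At ZT 4 it was 80.8, 61.5 and 63.1 CPM against 137, 87.6 and 126 CPM. At ZT 8 it was 79.2, 67.2 and 71.1 CPM against 139.8, 131 and 139 CPM. The 9 HFD libraries were all above the 9 AIN93G libraries, with the nearest pair at ZT 4, and 6 of the 12048 genes tested (0.0498%) had the HFD above in this way. The log2 fold change over ZT 0, 4 and 8 was 0.85 ± 0.087 (SE, 9 against 9 libraries, edgeR), or 1.81-fold, and by time point it was 0.86 ± 0.15, 0.78 ± 0.15 and 0.93 ± 0.15. Leaving out any 1 library kept it between 0.81 and 0.91. Because the gene was chosen for this difference, these values describe it and test nothing.

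At ZT 12, Abcc3 was 121, 66.0 and 67.4 CPM on AIN93G and 90.0, 87.3 and 90.3 CPM on the HFD, so the groups overlapped and the log2 difference was 0.08 ± 0.24 (SE, adjusted p = 0.975, edgeR). The AIN93G library with 121 CPM is replicate 1, with low Arntl. The other AIN93G libraries, with high Arntl, lay below the 3 HFD libraries. In the dark phase, HFD-fed liver had 119, 177 and 107 CPM at ZT 16 and 98.7, 119 and 117 CPM at ZT 20, within or above the range of the HFD libraries by day. The lone ZT 24 libraries had 82.9 CPM (AIN93G) and 70.6 CPM (HFD). Whether the diet difference of Abcc3 changed between ZT 12 and the earlier times was not tested, since the earlier times chose the gene.

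The ratio of Abcc3 to Abcc2, the sinusoidal against the canalicular exporter of conjugates, was taken per kb within each library. It was 0.124 to 0.213 (median 0.194) in the 9 AIN93G libraries of ZT 0 to ZT 8 and 0.206 to 0.326 (median 0.285) in the 9 HFD libraries. This ratio contains the values that chose Abcc3. It overlapped only at the edges of the groups, and Abcc2 outweighed Abcc3 in both diets.

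Markers of other cell types passed the light-phase diet test in 0 cases, and the summed lists overlapped between the diets. The sum of 8 cholangiocyte markers was 37.2 to 56.0 CPM on AIN93G and 29.7 to 55.1 CPM on the HFD over ZT 0 to ZT 8, and 4 of them had a mean at or below 1 CPM over the liver libraries. The sum of 10 hepatocyte markers was 118120 to 167489 CPM on AIN93G and 112340 to 145775 CPM on the HFD. The 6 Kupffer cell markers were all on the higher side on the HFD, with log2 differences of 0.15 to 0.91 (the lowest adjusted p was 0.228, for Timd4). Their sum was 313 to 454 CPM (median 356) on AIN93G and 297 to 877 CPM (median 459) on the HFD, and their part in the values of Abcc3 was not tested. In bulk liver, fewer cells of a type and less RNA per cell cannot be told apart.

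Among the 8 transporters other than Abcc3, 0 passed the test of diet over ZT 0, 4 and 8, where 0.54% of the 12048 genes passed at an adjusted p under 0.05 in edgeR and 1537 had an unadjusted p under 0.05. The median log2 fold change was 0.16 for the 5 canalicular transporters and 0.089 for the 3 uptake carriers, beside 0.003 for all genes.

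Abcb4, the phospholipid transporter, came nearest. It was 251 to 398 CPM (median 324) in the 9 AIN93G libraries and 344 to 569 CPM (median 401) in the 9 HFD libraries, which overlapped. The log2 fold change was 0.39 ± 0.10 (SE), with an adjusted p of 0.102 in edgeR. The adjusted p was 0.0161 in DESeq2, which called 2.22% of the genes, 0.0110 without the filter on low counts, which called 2.59%, and 0.0490 when HFD ZT 0 replicate 1 was left out. At ZT 0 it was 255, 334 and 282 CPM on AIN93G and 344, 569 and 441 CPM on the HFD, and at ZT 8 398, 324 and 304 CPM against 373, 368 and 401 CPM. The groups stood apart at ZT 0 and ZT 4 and overlapped at ZT 8.

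Of the other canalicular pumps, Abcc2 was 524 to 794 CPM (median 574) on AIN93G and 602 to 1015 CPM (median 664) on the HFD, a log2 difference of 0.23 ± 0.091 (SE, adjusted p = 0.288, edgeR). Abcb11 was 674 to 1264 CPM (median 935) against 619 to 1088 CPM (median 928), a log2 difference of -0.09 ± 0.095 (adjusted p = 0.728). The sterol exporters had log2 differences of 0.14 ± 0.067 (Abcg5, adjusted p = 0.390) and 0.16 ± 0.083 (Abcg8, adjusted p = 0.451). The ranges of all 4 genes overlapped between the diets.

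Of the uptake carriers, Slc10a1 was 481 to 962 CPM (median 652) on AIN93G and 396 to 761 CPM (median 599) on the HFD, a log2 difference of -0.22 ± 0.096 (SE, adjusted p = 0.353, edgeR). By time point, its HFD libraries lay below the AIN93G libraries at ZT 0 and ZT 8 and among them at ZT 4. Slco1b2 had a log2 difference of 0.13 ± 0.076 (adjusted p = 0.503). Slco1a1, which is more abundant in the liver of male than of female mice, had 0.09 ± 0.19 (adjusted p = 0.875), and its libraries scattered widely within a group, from 254 to 629 CPM on AIN93G and from 241 to 566 CPM on the HFD.

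**Figure D2:**
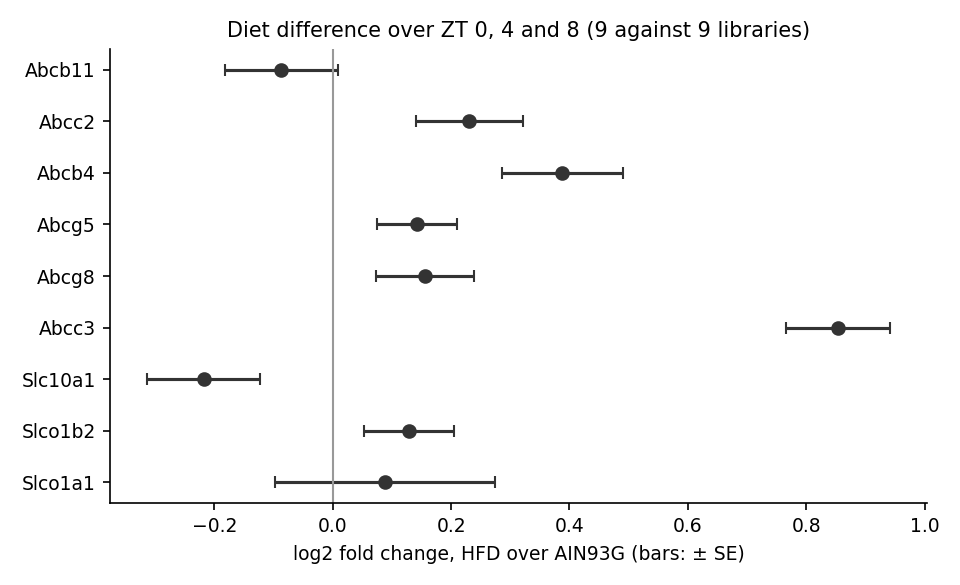
The points are the log2 fold changes of the HFD over AIN93G at ZT 0, 4 and 8 (x axis, 9 against 9 libraries) for each transporter (y axis), and the bars are ± SE. Abcc3 lies at 0.85, and the other 8 lie between -0.22 and 0.39.

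At single time points the groups of 3 could fail to overlap in many genes. Abcc3, chosen for standing higher at ZT 0 to ZT 8, is left out of these counts. At ZT 0, 3 of the other 8 transporters (Abcc2, Abcb4 and Abcg5) had the HFD libraries above the AIN93G libraries, where 6.6% of all genes did, and Slc10a1 had them below, where also 6.6% did. At ZT 4 it was 1 above (Abcb4, 4.12% of all genes) and 0 below (3.5%). At ZT 8 it was 0 above (6.97%) and 1 below (Slc10a1, 6.13%). At ZT 12 it was 0 in either direction (5.29% above and 4.94% below), and the edgeR test at ZT 12 called 0 of 11901 genes, 520 of them with an unadjusted p under 0.05 and 5 with an adjusted p under 0.05 in DESeq2. The interaction of diet with time over ZT 0, 4, 8 and 12 passed for 0 of 12009 genes in edgeR (705 with an unadjusted p under 0.05, 8 by DESeq2). The lowest adjusted p among the 8 transporters tested for it was 0.913, for Slc10a1.

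The ZT 12 libraries differed among themselves within a diet. Abcb11 was 559.6 CPM in AIN93G replicate 1 and 313 and 419 CPM in HFD replicates 1 and 2, the 3 libraries with low Arntl, and 1087, 1219 and 1037 CPM in the 3 with high Arntl. Abcg5 was 206, 159 and 155 CPM in the former and 90.3, 81.0 and 88.9 CPM in the latter. Slco1b2 was 1804, 1010.4 and 1575 CPM in the former and 1042, 1092 and 1089 CPM in the latter. The phase label ran with this split except in AIN93G replicate 3, labelled dark but with high Arntl. Arntl and not the labels defines these sets, so the values are listed as they are, without a test or a count of genes that separate.

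**Figure D3:**
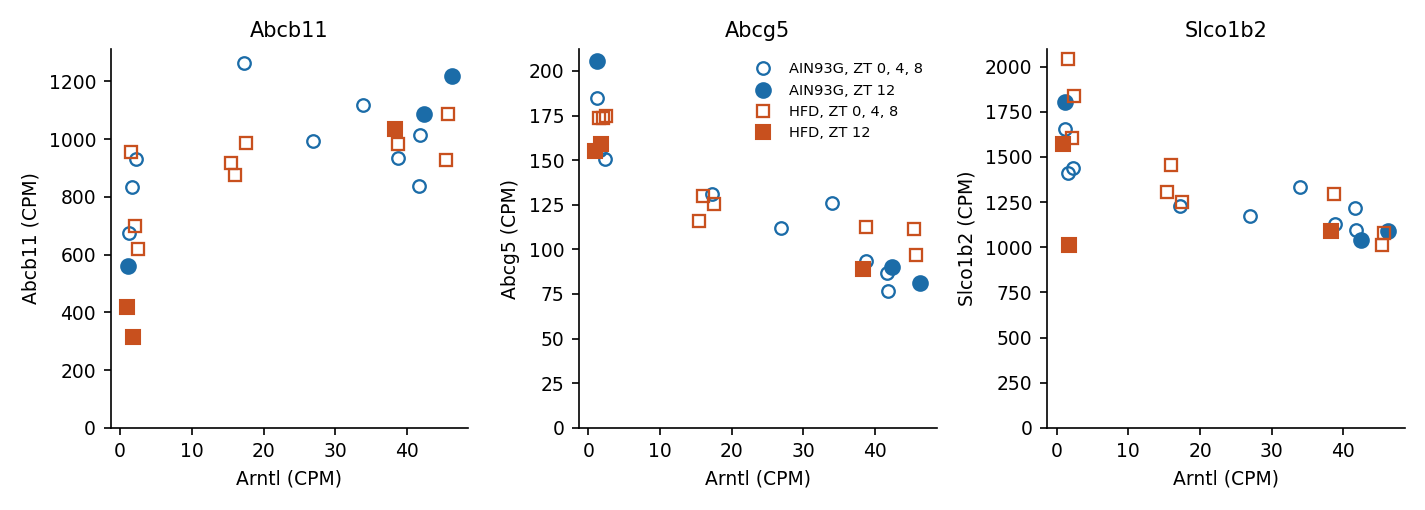
Each panel plots a transporter (y axis, CPM) against Arntl (x axis, CPM) in the libraries of ZT 0, 4 and 8 (open symbols) and ZT 12 (filled symbols), with circles for AIN93G and squares for the HFD. Of the 6 ZT 12 libraries, 3 have 0.940 to 1.76 CPM of Arntl and 3 have 38.3 to 46.3 CPM.

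The sterol exporters had higher levels late than early in the light phase. In AIN93G-fed liver Abcg5 was 76.9, 93.3 and 86.9 CPM at ZT 0, 131, 126 and 112 CPM at ZT 4, and 185, 156 and 151 CPM at ZT 8. Abcg8 was 88.0, 97.5 and 73.3 CPM, then 139, 109 and 105 CPM, then 154, 152 and 160.3 CPM. For both genes the 3 time points followed each other upward without overlap, where 0.666% of the 12008 genes tested did and the other 7 transporters did not. The edgeR F-test over ZT 0, 4, 8 and 12 gave adjusted p-values of 0.499 and 0.487 and called 0 of 12008 genes (1196 with an unadjusted p under 0.05, 278 by DESeq2). Over ZT 0, 4 and 8 alone it gave 0.0113 for Abcg5 and 0.0326 for Abcg8 and called 2.26% of the genes. Leaving out AIN93G ZT 12 replicate 1 alone gave 0.00437 and 0.0119. The other 7 transporters did not pass in either test.

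In HFD-fed liver the same genes could be followed into the night. Abcg5 was 96.7, 112 and 111 CPM at ZT 0, 116, 125 and 129.9 CPM at ZT 4, and 175, 174 and 174 CPM at ZT 8. It was 62.0, 97.1 and 86.0 CPM at ZT 16 and 70.1, 82.8 and 79.5 CPM at ZT 20, below every library of ZT 4 and ZT 8. Abcg8 was 98.1, 113 and 106 CPM, then 113, 120.0 and 149.8 CPM, then 146, 178 and 157 CPM by day. At night it was 36.4, 82.4 and 73.7 CPM at ZT 16 and 40.0, 80.0 and 66.5 CPM at ZT 20. All 6 night libraries of Abcg8 lay below all 9 libraries of ZT 0 to ZT 8.

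A 24 h cosine fitted to the 19 HFD liver libraries passed for 2 of the 9 transporters, Abcg5 (adjusted p = 0.00369) and Abcg8 (adjusted p = 0.00524), where edgeR called 3.06% of 11982 genes. The amplitude was 0.54 ± 0.085 log2 units (SE) for Abcg5, with a peak at ZT 7.19 ± 0.57 h, and 0.72 ± 0.12 for Abcg8, with a peak at ZT 6.55 ± 0.60 h. From peak to trough this is 2.12-fold and 2.73-fold. Without ZT 12 and ZT 24 the adjusted p-values were 0.000337 and 0.00239 and the peaks ZT 7.14 and ZT 6.08. Both genes also passed without any 1 of the 19 libraries.

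Compared directly, ZT 16 and ZT 20 were lower than ZT 4 and ZT 8 for 3 of the 9 transporters, where edgeR called 5.77% of all genes and 3% were lower. Abcg8 fell by 1.18 ± 0.19 on the log2 scale (SE, adjusted p = 0.00192, edgeR) and Abcg5 by 0.88 ± 0.14 (adjusted p = 0.00147), which is 2.27-fold and 1.84-fold. Slco1b2 fell by 0.53 ± 0.13 (adjusted p = 0.0267), or 1.44-fold. Without ZT 12 and ZT 24 the adjusted p-values of Abcg8, Abcg5 and Slco1b2 were 0.00150, 0.000123 and 0.0132. The call for Slco1b2 was lost when ZT 0 was counted as day (adjusted p = 0.0923) and without any of 5 single libraries (HFD ZT 4 replicate 3, HFD ZT 8 replicate 3, HFD ZT 16 replicates 1 and 3 and HFD ZT 20 replicate 3), with adjusted p-values up to 0.0705. The median log2 change of the 9 was -0.40, beside 0.008 for all genes. Some markers of other cells and of liver zones moved in the same test, and their part in these differences was not tested. Of 7 tested pericentral markers 2 were lower at night (Oat, a log2 difference of -0.94, adjusted p = 0.0277, and Slc1a2, log2 -0.64, adjusted p = 0.0366), and the sum of all 8 was 8251 to 12431 CPM at ZT 4 and ZT 8 and 6351 to 9318 CPM at ZT 16 and ZT 20. Of 6 stellate cell markers 1 was higher (Dcn, log2 0.57, adjusted p = 0.0116), with sums of 227 to 269 CPM by day and 258 to 362 CPM at night. Of 2 tested cholangiocyte markers 1 was higher (Sox9, 2.82-fold, adjusted p = 0.00703), with sums over all 8 of 37.0 to 50.3 CPM by day and 35.95 to 56.4 CPM at night. The tested markers of hepatocytes, periportal liver, Kupffer cells, sinusoidal endothelium, adipocytes and intestine passed in 0 cases. These 4 named genes were chosen after their values were seen.

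**Figure D4:**
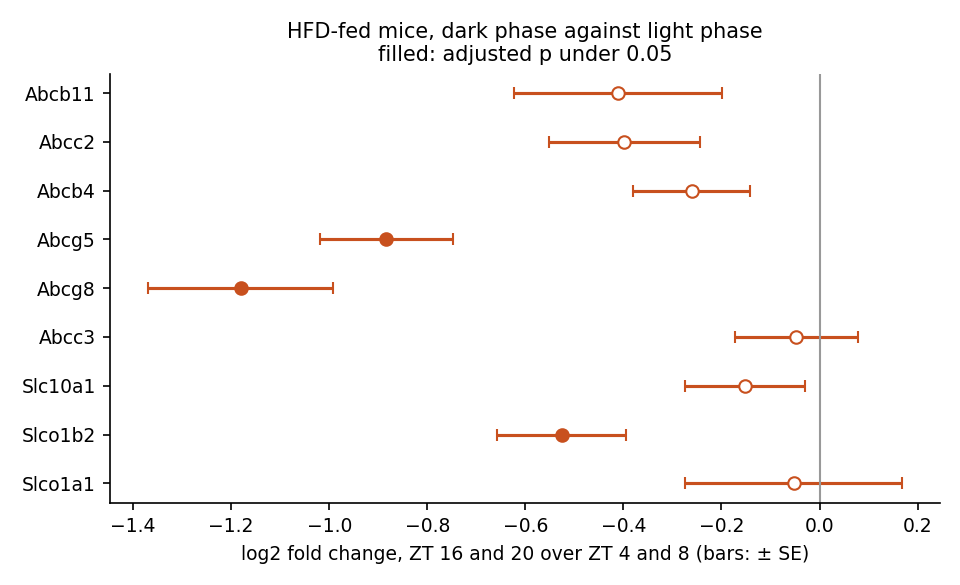
The points are the log2 fold changes of ZT 16 and 20 over ZT 4 and 8 in HFD-fed liver (x axis) for each transporter (y axis), with bars for ± SE and filled points for an adjusted p under 0.05. Abcg8, Abcg5 and Slco1b2 are filled, at -1.18, -0.88 and -0.53, and Abcc3 lies at -0.05.

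Slco1b2, a carrier of bilirubin and many drugs, was like the sterol exporters higher at ZT 8 than at ZT 16 and ZT 20 on the HFD. On the HFD it was 1081, 1295 and 1011 CPM at ZT 0 and 1835, 1606 and 2045 CPM at ZT 8, then 943, 1338 and 929 CPM at ZT 16 and 1139, 1184 and 989 CPM at ZT 20. The ZT 8 libraries were above all others of the HFD from ZT 0 to ZT 20. The libraries of ZT 16 and ZT 20 overlapped those of ZT 0, which was not so for Abcg8. The cosine over the 19 libraries peaked at ZT 6.98 ± 0.94 h, with an adjusted p of 0.0569. Without ZT 12 and ZT 24 it peaked at ZT 8.19 ± 0.91 h, with an adjusted p of 0.0135, where 8.6% of the genes were called. It also passed without HFD ZT 12 replicate 1 (0.0424), HFD ZT 12 replicate 3 (0.0305), the 3 libraries of ZT 12 (0.0292) or the ZT 24 library (0.0335).

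Abcb11, the bile salt pump, did not pass the cosine test over all 19 HFD libraries. On the HFD it was 1088, 982 and 928 CPM at ZT 0, 919, 987 and 876 CPM at ZT 4, 619, 698 and 957 CPM at ZT 8, 479, 613 and 496 CPM at ZT 16 and 760.2, 765 and 728 CPM at ZT 20. The lowest mean of these times was at ZT 16, but HFD ZT 12 replicates 1 and 2, at 313 and 419 CPM, were lower still. The cosine over the 19 libraries had an adjusted p of 0.182, an amplitude of 0.42 ± 0.14 log2 units (SE) and a peak at ZT 2.26 ± 1.34 h. Without ZT 12 and ZT 24 the adjusted p was 0.00270, the amplitude 0.49 ± 0.072 and the peak ZT 1.87 ± 0.48 h. Leaving out HFD ZT 12 replicate 3 (adjusted p = 0.0233) or the ZT 24 library (adjusted p = 0.0422) alone also brought it past the threshold. The night difference was -0.41 ± 0.21 on the log2 scale (adjusted p = 0.279), and -0.42 without ZT 12 and ZT 24 (adjusted p = 0.0347), where 7.48% of the genes were called.

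Abcb4 and Slc10a1 passed the cosine test only without the ZT 24 library, at adjusted p-values of 0.0320 and 0.0420, where 8.52% of the genes were called, and not when ZT 12 was left out as well (0.0716 and 0.0677). Abcc2, Slco1a1 and Abcc3 did not pass, at adjusted p-values of 0.220, 0.770 and 0.958, or of 0.0740, 0.658 and 0.821 without ZT 12 and ZT 24. Abcc3, the gene with the largest diet difference by day, had an amplitude of 0.05 ± 0.11 log2 units in HFD-fed liver. Slco1a1 was 248, 302 and 587 CPM at ZT 16, and the highest of these is the library with 0.618 CPM of Xist. The part of that library's label in the value was not tested, and without it the night difference of Slco1a1 moved from -0.05 to -0.28 on the log2 scale, not past the threshold.

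As a check of the time axis, 6 of 9 tested clock and clock output genes passed the same night against day test, 3 higher and 3 lower. Nr1d1 (REV-ERBα), a repressor in the clock, was lower by 4.78 on the log2 scale and Arntl higher by 2.43. These tests do not use the ZT 12 libraries for the difference itself, only for the spread.

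Abcg5 and Abcg8 were each other's closest match among the genes measured. Their log2 CPM had a Pearson correlation of 0.918 over the 32 liver libraries, 0.946 in the 13 AIN93G and 0.926 in the 19 HFD libraries. These values are descriptions, since libraries share time of day and depth, and the genes share 82 exonic bases. The ratio of Abcg8 to Abcg5 per kb was 0.603 to 0.828 in AIN93G-fed and 0.606 to 0.834 in HFD-fed liver at ZT 0 to ZT 8. It was lowest in HFD ZT 16 replicate 1 (0.425) and HFD ZT 20 replicate 1 (0.413), the libraries with the least Abcg8 of the 32.

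**Figure D5:**
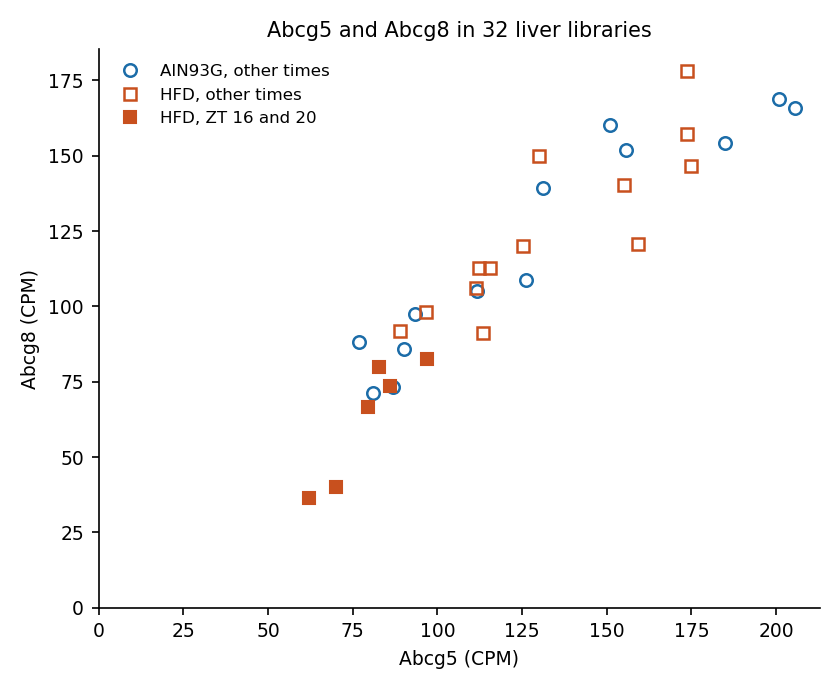
Each point is 1 of the 32 liver libraries, with Abcg5 (x axis, CPM) against Abcg8 (y axis, CPM), circles for AIN93G, squares for the HFD and filled squares for the HFD at ZT 16 and ZT 20. The libraries line up (r = 0.918), and the 6 filled squares lie between 62.0 and 97.1 CPM of Abcg5.

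The genes most like each transporter over the 32 libraries, by Pearson correlation of log2 CPM among 12000 genes, differed between them. For Abcb11 they were Cbs, Abca2 and Gm36041 (0.913 to 0.900). For Slco1b2 they were Mia2, Ube2g1 and Cobll1 (0.910 to 0.881), and for Abcc2 Cobll1, Mia2 and Fnip1 (0.875 to 0.869), so Mia2 and Cobll1 were shared. Beside its partner, Abcg8 was nearest to Aqp9 (0.904) and Syt1 (0.870), and Abcg5 to Gpcpd1 (0.864) and Syt1 (0.858). Slc10a1 was nearest to Slc2a2, the GLUT2 glucose transporter (0.860), Uox and Fgfrl1, and Slco1a1 to the complement genes C8a and C8b (0.841 and 0.840) and Cyp2c67. Abcb4 was nearest to Tmem56 (0.814), Dnajc28 and Fbxl17. For Abcc3 they were Cpt2, an enzyme of mitochondrial fatty acid oxidation (0.699), Map3k13 (0.689) and Aldh3a2, an aldehyde dehydrogenase of fatty aldehydes (0.682), the lowest top values of the 9. The 32 libraries hold both diets and the values that chose Abcc3, so its closest genes are a description. A shared function was not tested.

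Other transporters and their regulators were looked up in lists written by hand. Of 5 tested transporters and accessory proteins of the canalicular membrane, 0 passed the diet test over ZT 0 to ZT 8, with Abcg2 (log2 0.25, adjusted p = 0.278) and Slc47a1 (0.25, 0.394) the nearest. Of 7 tested at the sinusoidal membrane, 0 passed, with Slco2b1 (0.20, 0.387) and Abcc6 (0.16, 0.409) the nearest. Of 13 nuclear receptors and other regulators of these genes, 0 passed. The nearest were Ppara, the fatty acid receptor (0.50 ± 0.13, adjusted p = 0.108), Nr0b2, which represses bile acid synthesis (-0.79 ± 0.24, 0.168), Nr5a2 (0.22, 0.261) and Nr1i2 (0.22, 0.294). By time point, Nr0b2 differed by -0.15 at ZT 0, -0.074 at ZT 4 and -2.13 at ZT 8 (adjusted p = 0.109 at ZT 8). Of 10 tested genes that xenobiotics induce, 0 passed, with Srxn1 (0.19, 0.380), Cyp1a2 (0.24, 0.381), Cyp4a14 (0.75, 0.461) and Gstm3 (-0.40, 0.486) the nearest. Of 11 tested sex-biased genes, 0 passed, with Sult3a1 (-1.01, 0.139), Hsd3b5 (-0.74, 0.158), Cyp7b1 (0.57, 0.193) and Elovl3 (1.58, 0.228) the nearest. Hsd3b5 differed by -0.98 at ZT 0, 0.62 at ZT 4 and -1.85 at ZT 8 (adjusted p = 0.147 at ZT 8). In the night test of HFD-fed liver, 0 of the tested genes passed in each of these 5 lists.

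The dark-phase comparison of diets sets HFD-fed liver against libraries with almost no Alb. In the AIN93G libraries alone, 7 of the 9 transporters at ZT 16 and 6 at ZT 20 had a mean count under 25, so they passed the filter through the HFD libraries and had to differ. Their values are therefore given without a count of calls. With CPM scaled by library size alone, Abcc3 was 10.5, 29.0 and 16.7 CPM in the AIN93G libraries of ZT 16, 7.08-fold below the HFD mean, and Abcb4 was 82.4-fold below it. In the edgeR fit with TMM factors these folds were 13.04 for Abcc3 and 152 for Abcb4. By library size, Abcg8 and Slco1a1, with 3 counts or fewer in each of these libraries, were at least 346-fold and 2044-fold below at a floor of 3 counts a library. Over all 10 libraries with low Alb, Abcc3 was 10.5 to 29.0 CPM, Abcb4 0.796 to 15.0 CPM and Abcc2 0.374 to 2.61 CPM, and the other 6 did not exceed 1.09 CPM. Alb was at or below 81.0 CPM in the same libraries, so diet and tissue content cannot be told apart here.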

How the data were processed

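RNA was prepared from tissue labelled liver, and poly(A) libraries were made and sequenced as paired-end reads for the authors by a company. The values are raw read counts by gene, which the authors deposited as 1 table for all libraries. The submitters' processing notes name mm10, fastp, STAR, HTSeq 0.6.1, DESeq and STAR-Fusion, without their roles or the strand setting. Counts were scaled to CPM by library size and TMM factors in the liver libraries and by library size alone for the Alb limit and the libraries low in Alb, and log2 CPM used a prior count of 2.

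Libraries with Alb over 10000 CPM were taken as liver. Each fit kept genes whose count averaged 25 or more in its libraries, and edgeR 4.0.16 in R 4.3.3 gave quasi-likelihood F-tests. Diets were compared over ZT 0, 4 and 8 and at each time point, and the groups of ZT 0, 4 and 8 shared 1 fit. Further tests were diet by time, time in AIN93G-fed liver, a 24 h cosine in HFD-fed liver, and ZT 16 and 20 against ZT 4 and 8. P-values were adjusted by Benjamini-Hochberg over all genes tested, with a threshold of 0.05. Amplitudes and peaks came from a least-squares cosine on log2 CPM. The SE of a fold change is its size divided by the root of F.

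The members, lists and tests were chosen with earlier results of these data known. Alternatives were DESeq2 1.42.0, scaling by library size, other filters, other sets of time points, and leaving out each library. Dropping ZT 12 and ZT 24 together was added after the values were seen. Genes named are the 9 transporters and Alb, the 3 genes most correlated with each, and at most 4 per list, those with the lowest adjusted p where none passed. Arntl, Xist, Nr1d1, Nr1d2 and Dbp were chosen for the text after their values had been seen. Replicates are separate mice, and all 42 pairs of replicates differed by more than counting error allows, with a chi-square of at least 14.5 per degree of freedom. The fits were checked on simulated data. The floor of 3 counts covers counting error only.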

Additional observations from a re-analysis of the deposited data

How the results depend on the processing

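Of 1485 values of the transporters under the alternatives, 1435 kept their direction and their side of the threshold, as far as they had these. Of the rest, 6 lost a call, 25 gained one and 19 reversed, the last all with 1 library left out. F-tests over time have no direction. The total takes in dark-phase diet differences, most of which had to differ, and those that chose Abcc3, which have no p-value. It is therefore a tally and not a measure of how stable the results are. The number of genes called over ZT 0, 4 and 8 was 65, and 267 with DESeq2, 745 without a filter and 17 in 1 fit of all liver libraries (31 to 106 with 1 library left out). At ZT 0 it was 7, and 42, 237 and 0 (0 to 11). At ZT 4 it was 0, and 6 and 156 with DESeq2 and without a filter (0 to 2). At ZT 8 it was 5, and 109, 599 and 2 in the same settings and 0 in a fit of that time point alone (0 to 153). At ZT 12 it was 0, and 5 with DESeq2. For diet by time it was 0, and 8 and 78 with DESeq2 and without a filter (0 to 3). For time in AIN93G-fed liver it was 0, and 278, 705 and, without ZT 12, 272 (0 to 302). For the cosine it was 367, and 872 with DESeq2, 1023 without ZT 24 and 1035 without ZT 12 and ZT 24 (134 to 1023). For night against day it was 691, and 1082 and 1260 with DESeq2 and without a filter (404 to 903).

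With 1 library left out, the ZT 12 diet difference, on the log2 scale, ranged from -0.074 to 0.41 for Abcc3, -0.42 to 0.26 for Abcc2, -0.13 to 0.64 for Abcg5, -0.088 to 0.57 for Abcg8, -0.10 to 0.25 for Slc10a1 and -0.34 to 0.19 for Slco1b2. The night difference ranged from -0.17 to 0.024 for Abcc3 and -0.28 to 0.062 for Slco1a1. The cause of these changes was not tested. Scaling by library size moved the share of all calls that were higher on the HFD from 48.6% to 17.5% at ZT 16 and from 47.4% to 21.6% at ZT 20. No paired analysis was possible because the labels number no replicates, which were numbered in accession order. Some sample titles share a stem across time points of 1 diet, never across diets, and what the stem marks is not given in the sources used here, so no fit used it. At this depth Abcg8 and Slco1a1 at ZT 16, and Abcg5 and Abcg8 at ZT 20, were at or under 3 counts in every AIN93G library.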
